A study of Arabidopsis thaliana with 4 samples.

Results

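The UMAMIT genes of Arabidopsis thaliana encode transporters named for the phrase "usually multiple acids move in and out". The 46 genes described here are nuclear protein-coding genes with UMAMIT and a number as symbol or synonym, out of 27444 nuclear protein-coding genes in all. Of these 46, 44 carry the name as their symbol, and 2 are better known as WAT1 (UMAMIT5) and SIAR1 (UMAMIT18). The 44 include UMAMIT16-psi and UMAMIT43-psi, which are named as pseudogenes but annotated as protein-coding. UMAMIT39-psi, annotated as a transcribed pseudogene, was left out and had no region of either mark. The genes were selected on their names, and their regions on overlap with the gene body widened by 500 bp on each side. The family was taken up with the large callus-to-leaf folds of UMAMIT29 already known, so those folds are given as a description.

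The study profiled acetylated histone H3 (H3ac) and trimethylated H3 lysine 4 (H3K4me3) by chromatin immunoprecipitation sequencing in the Col-0 ecotype. One group was mature rosette leaf and the other callus grown from leaf explants. The seedling age was 2 weeks for both groups. The explants were kept for 15 days on a medium abbreviated CIM in the labels. Neither tissue had another treatment, and tissue and time on this medium cannot be told apart. Each mark had 1 leaf and 1 callus library, so replicates are lacking throughout, no test was possible, and each fold compares 2 libraries rather than tissues.

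UMAMIT proteins belong to the nodulin 21-like branch of the drug and metabolite transporter superfamily. Those studied carry amino acids across the plasma membrane or the vacuolar membrane without coupling to a proton gradient, so that they can release amino acids from a cell down their gradient. In plants such export hands amino acids from the phloem, from maternal seed tissue or from storage in vacuoles to cells that have no supply of their own. WAT1 stands apart, as it is known for exporting auxin from the vacuole in cells that build secondary walls. H3ac and H3K4me3 are both found mostly at genes in use.

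The authors called regions of enriched signal in each library and merged them into 20264 H3ac and 18564 H3K4me3 regions. They then listed the regions where callus had at least 2-fold the tags of leaf, with a p-value from the Poisson distribution no higher than 0.01, counted in a fixed window, about as wide as a nucleosome, at the region's centre. Tag numbers were at hand for listed regions only, so regions called in leaf alone have a score but no fold. The spacing of the tag values gave a callus-to-leaf depth ratio of 1.369 for H3ac and 1.016 for H3K4me3, and total depth is unknown. The tissue labels were checked on marker genes. All 7 genes for callus and root stem cell factors (PLT1, PLT2, PLT3, PLT5, PLT7, BBM and WOX11) were listed as higher in callus for both marks. Of 6 light-harvesting and Rubisco genes, 5 had H3K4me3 regions in leaf alone, but 3 had an H3ac region at all, 2 of them in leaf alone, so the check of leaf is weaker for H3ac. None of the 6 was listed as higher in callus for either mark. These are few genes, and lists were chosen with earlier results of these data known, so the check is limited for callus too.

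Most UMAMIT genes had no called region of either mark within 500 bp in either tissue. An H3ac region lay at 18 of the 46 genes (39.1%) and an H3K4me3 region at 19 (41.3%), whereas 69.2% of all nuclear protein-coding genes had an H3ac region and 73.3% an H3K4me3 region by the same rule. Regions of both marks lay at 17 UMAMIT genes, H3ac without H3K4me3 at UMAMIT21, and H3K4me3 without H3ac at UMAMIT8 and UMAMIT11. The other 26 (56.5%) had no region, compared with 25% of all genes. Length, expression and sequence uniqueness were not matched in this comparison.

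The genes without a region include several with known roles in seeds and roots. They were UMAMIT3, UMAMIT4, UMAMIT9, UMAMIT10, UMAMIT12, UMAMIT14, UMAMIT15, UMAMIT16-psi, UMAMIT17, UMAMIT19, UMAMIT20, UMAMIT22 to UMAMIT28, UMAMIT30 to UMAMIT32, UMAMIT34, UMAMIT35, UMAMIT37, UMAMIT42 and UMAMIT43-psi. UMAMIT14 is known for releasing amino acids from the root phloem, UMAMIT28 for export in developing seeds, and UMAMIT24 and UMAMIT25 for moving amino acids within seeds. Among the 28 genes without an H3ac region, the next one lay a median of 2171 bp from the gene and at most 21057 bp from it, at UMAMIT35. For the 27 without an H3K4me3 region the median was 1588 bp and the largest distance 24720 bp, again at UMAMIT35. A gene without a called region may still carry the mark below the level that the authors' caller needed.

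Of the UMAMIT genes with an H3ac region, 3 of 18 (16.7%) were listed as higher in callus, namely UMAMIT21, UMAMIT29 and UMAMIT45, where 7.03% of all genes with such a region were listed. For H3K4me3, 2 of 19 (10.5%) were listed, UMAMIT8 and UMAMIT29, where the share over all genes was 8.01%. UMAMIT29 was thus the 1 family member listed for both marks, among 17 with regions of both, where 3.18% of all genes with both were listed for both. Regions called in leaf alone made up all H3ac regions of UMAMIT36, UMAMIT46 and UMAMIT47, 3 of 18 genes (16.7%, where the share over all genes was 3.26%). For H3K4me3 this held for UMAMIT11 and UMAMIT36, 2 of 19 genes (10.5%, where it was 2.9% over all genes). These counts rest on very few genes, and 11 genes for H3ac and 14 for H3K4me3 had regions called in both tissues throughout, none of them listed.

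**Figure D1:**
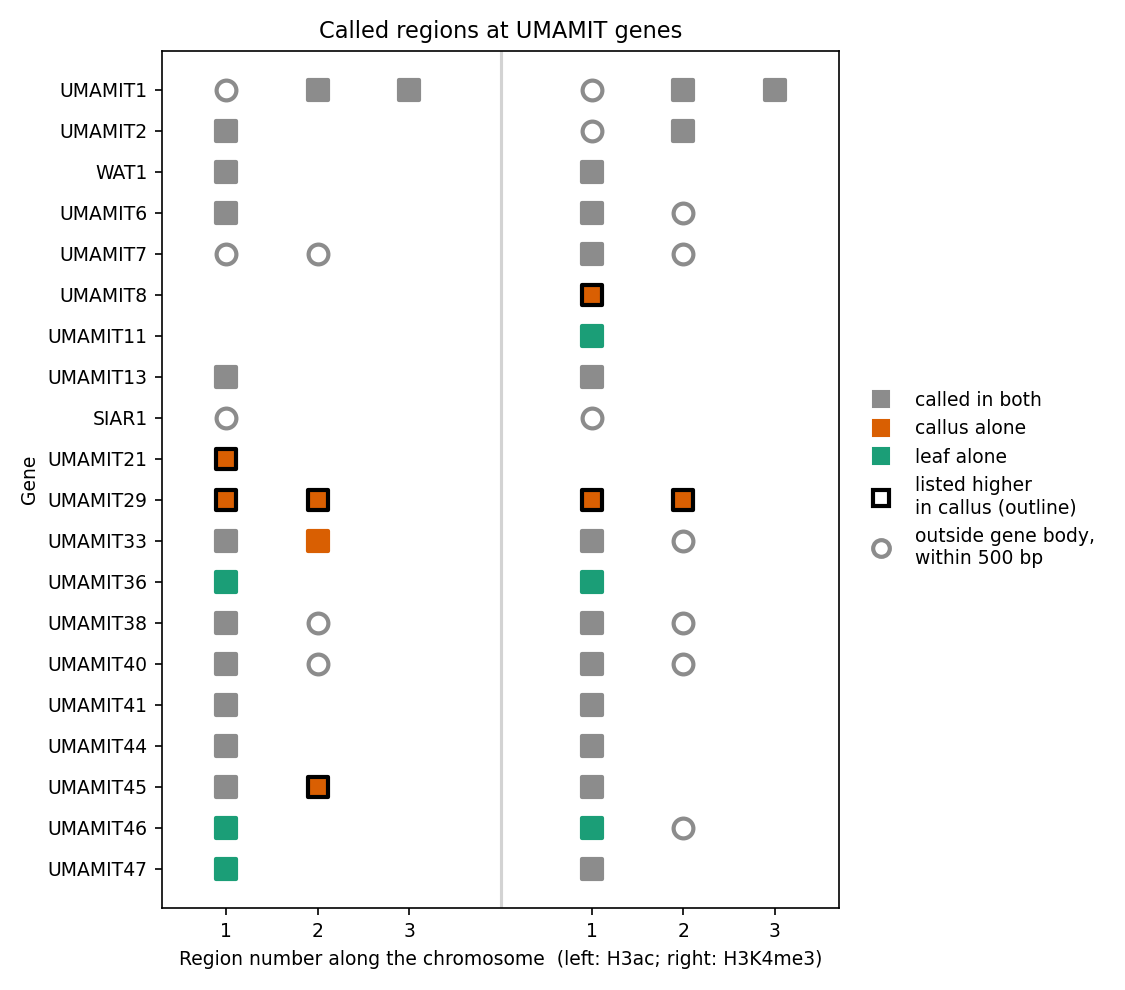
Each row is 1 of the 20 UMAMIT genes with a called region, each symbol is 1 region, numbered along the chromosome, with H3ac on the left and H3K4me3 on the right. Orange regions were called in callus alone, green in leaf alone and grey in both; a black outline marks those listed as higher in callus, and open circles lie outside the gene body. UMAMIT29 has 4 outlined regions, UMAMIT36 and UMAMIT46 have green squares for both marks, and most other genes are grey.

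UMAMIT29 had more tags of both marks in the callus library than in the leaf library, at 2 separate places in the gene. It encodes an amino acid exporter known from the developing seed. All 4 of its regions were called in callus alone, and in 3 of them the leaf library held at most 3.5 tags. They lay on chromosome 4 of TAIR10.

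In the authors' deposited table the H3K4me3 region at 586491 to 587152 held 100.9 scaled callus tags and 1.5 leaf tags, a 67.28-fold difference (exact 95% interval from both tag numbers, 15.4 to 946). The other H3K4me3 region, at 585584 to 586119, held 97.5 scaled callus and 3.5 leaf tags in the authors' deposited table, or 27.85-fold (9.95 to 118). Callus tags were thus nearly equal in both regions, and the folds differ through the few leaf tags, with intervals that overlap. By fold these regions ranked 18 and 50 among 1359 listed H3K4me3 regions, whose median was 3.32-fold.

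The H3ac regions of UMAMIT29 lay at the same 2 places. In the authors' deposited table the region at 586598 to 586748 held 23.7 scaled callus and 0.5 leaf tags, given as 47.48-fold, with a lower bound of 4.75 and no useful upper bound. The region at 585360 to 586179 held 35.4 scaled callus and 9 leaf tags in the authors' deposited table, or 3.94-fold (1.91 to 9.11). The first ranked 2 by fold among all 1617 listed H3ac regions, of which 1540 were nuclear. However, it was 151 bp long, the smallest width in its class. By score, the authors' own value of region strength, it ranked 2743 among the 2855 nuclear H3ac regions called in callus alone. The second ranked 295 by score in that class and 443 by fold, so the order of these regions depends on which value is read.

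The marks overlapped closely at both places. The H3ac region at 586598 lay wholly inside an H3K4me3 region, with 148 bp between their centres, and the other H3ac region covered the whole of its H3K4me3 counterpart, with 82 bp between centres. That H3ac region was the 1 region of UMAMIT29 with a sizeable part outside the gene body, 71% of its length being inside. Next to it, 525 bp from the gene body and so outside the 500 bp used here, lay another H3ac region called in callus alone (584923 to 585073) that overlapped no protein-coding gene and was not listed.

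**Figure D2:**
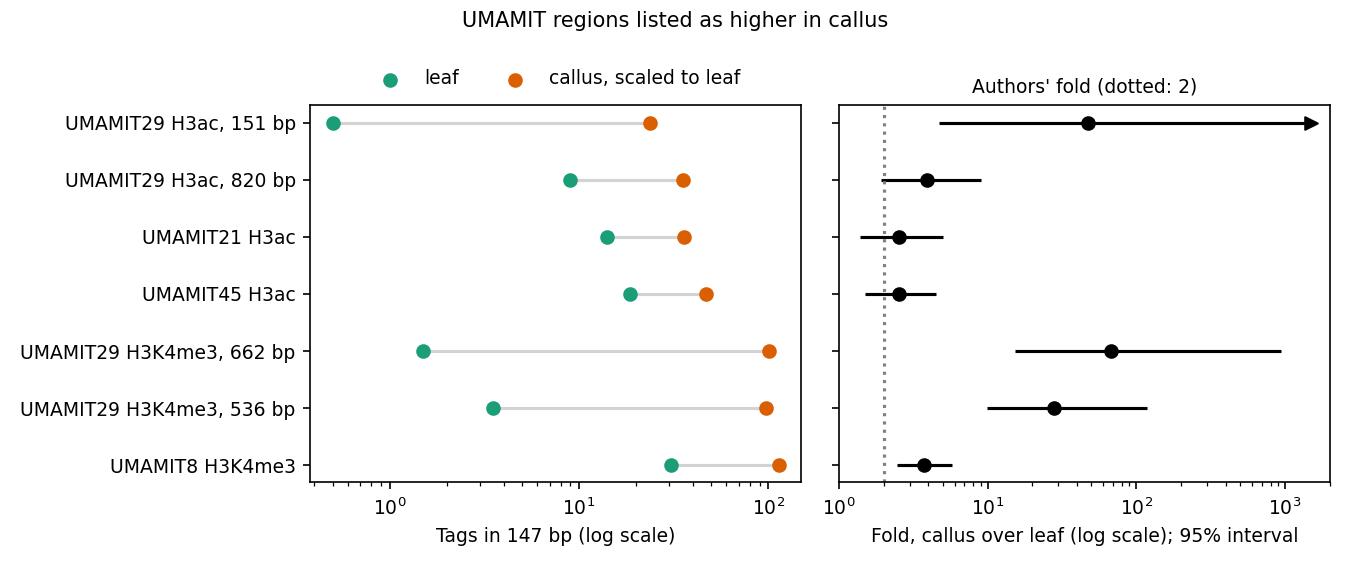
The left panel gives tags in the counted window on a log scale for leaf (green) and for callus after scaling to the leaf library (orange); the right panel gives the fold on a log scale with exact 95% intervals, an arrow marking a bound beyond the axis and the dotted line 2-fold. The UMAMIT29 H3K4me3 intervals start at 9.95 and 15.4, whereas those of UMAMIT45, UMAMIT21 and the longer H3ac region of UMAMIT29 reach below 2.

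UMAMIT29 lies in a row with UMAMIT31 and UMAMIT30, and neither of these had a region of either mark. The nearest H3ac region to UMAMIT31 was 3741 bp away and that to UMAMIT30 was 9899 bp away. For H3K4me3 these distances were 3742 and 9937 bp. The callus regions of UMAMIT29 therefore did not extend over its neighbours in the family.

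**Figure D3:**
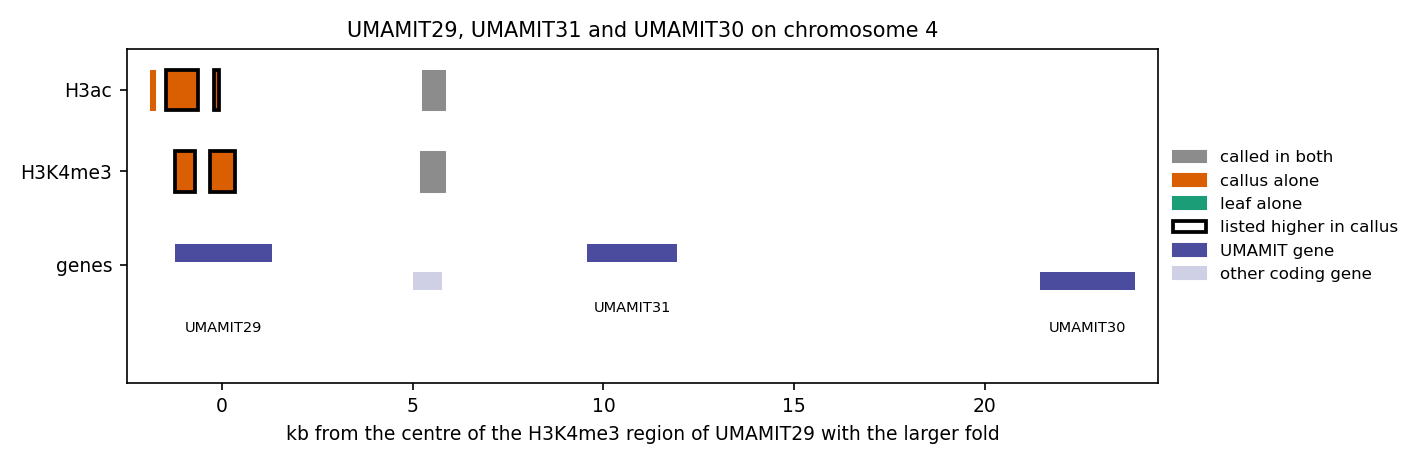
Regions of H3ac (top row) and H3K4me3 (middle row) and protein-coding genes (bottom) are drawn in kb from the centre of the UMAMIT29 H3K4me3 region with the larger fold. Orange regions outlined in black, called in callus alone and listed as higher there, lie at UMAMIT29, beside an orange H3ac region that was not listed; no region lies over UMAMIT31 or UMAMIT30, and the grey pair lies at another gene.

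UMAMIT8, UMAMIT21 and UMAMIT45 were each listed for 1 mark with folds between 2.53 and 3.73. These lie below the folds of 3 of the UMAMIT29 regions, while the fourth, at 3.94-fold, is close to that of UMAMIT8. UMAMIT8 had an H3K4me3 region at 9359434 to 9360027 on chromosome 4, called in callus alone and wholly inside the gene body. It held 113.7 scaled callus and 30.5 leaf tags in the authors' deposited table, or 3.73-fold (2.48 to 5.75), so leaf held many tags although no region was called there. It had no H3ac region.

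UMAMIT21 showed the reverse pairing, with H3ac and no H3K4me3. Its H3ac region at 25865590 to 25865931 on chromosome 5 was called in callus alone and held 35.8 scaled callus and 14 leaf tags in the authors' deposited table, or 2.56-fold (1.39 to 5.02). The interval reaches below the authors' limit of 2-fold. By fold it ranked 1034 among all 1617 listed H3ac regions, of which 1540 were nuclear. Its fold was below the median of 2.92-fold over all 1617.

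UMAMIT45 had more H3ac tags in the callus library at 1 of 2 H3ac regions in its gene body. The region at 10458847 to 10459434 on chromosome 3 was called in callus alone and held 46.7 scaled callus and 18.5 leaf tags in the authors' deposited table, or 2.53-fold (1.49 to 4.49). No H3K4me3 region overlapped it. The other H3ac region of UMAMIT45, at 10456124 to 10457680, and its H3K4me3 region, at 10455991 to 10457296, overlapped each other, were called in both tissues and were not listed.

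UMAMIT33 had an H3ac region of 151 bp in callus alone as well (chromosome 4, 13941586 to 13941736), but it was not listed. Of the 2855 nuclear H3ac regions called in callus alone, 1366 (47.8%) were listed, so a call in 1 tissue alone often went without passing the authors' limits on fold and p-value. The other H3ac region of UMAMIT33 and the H3K4me3 region that covered both were called in both tissues.

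UMAMIT46 carried the strongest leaf-alone region of the family. Its H3K4me3 region at 10447831 to 10449225 on chromosome 3 was 1395 bp long, was called in leaf alone and lay with 99% of its length in the gene body. Its score of 630.1 ranked 25 among the 882 nuclear H3K4me3 regions called in leaf alone, whose median was 94.8. An H3ac region at 10449470 to 10449703, also called in leaf alone, lay in the same gene without overlapping it and had a score of 58.8, rank 776 of 1643. Within 500 bp of the gene there was also an H3K4me3 region called in both tissues, which lay in the body of UMAMIT47, so UMAMIT46 was not counted above as leaf alone for H3K4me3.

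UMAMIT47, its neighbour, had an H3ac region in leaf alone (10451904 to 10452316, score 86.8, rank 517 of 1643) that lay wholly inside the H3K4me3 region called in both tissues. The marks thus had different calls at UMAMIT47 and the same call at UMAMIT36. UMAMIT36, a gene known from work on resistance to Phytophthora, had leaf-alone regions of both marks on chromosome 1, at 26459085 to 26459445 for H3ac and at 26459181 to 26459411 for H3K4me3, the second inside the first. Their scores were 91 (rank 480 of 1643) and 41.4 (rank 673 of 882). UMAMIT11, like UMAMIT29 an amino acid exporter of developing seeds, had a leaf-alone H3K4me3 region at 17065236 to 17065529 on chromosome 2 with a score of 50.1 (rank 621 of 882) and no H3ac region. Without tag numbers for these regions, by how much they differed between tissues is not known.

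UMAMIT45, UMAMIT46 and UMAMIT47 belong to 1 row of 6 family members on chromosome 3, with UMAMIT41, UMAMIT43-psi and UMAMIT44. Along this row the calls changed from gene to gene. UMAMIT41 and UMAMIT44 at its ends had regions of both marks called in both tissues, UMAMIT43-psi had none, UMAMIT46 had regions in leaf alone, UMAMIT47 in leaf alone for H3ac, and UMAMIT45 had the extra H3ac region in callus. In all, 18 of the 46 genes lay in 6 such groups, with at most 2 other coding genes between neighbours. Genes in such rows can be near copies of each other, and whether reads were shared among them was not tested.

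**Figure D4:**
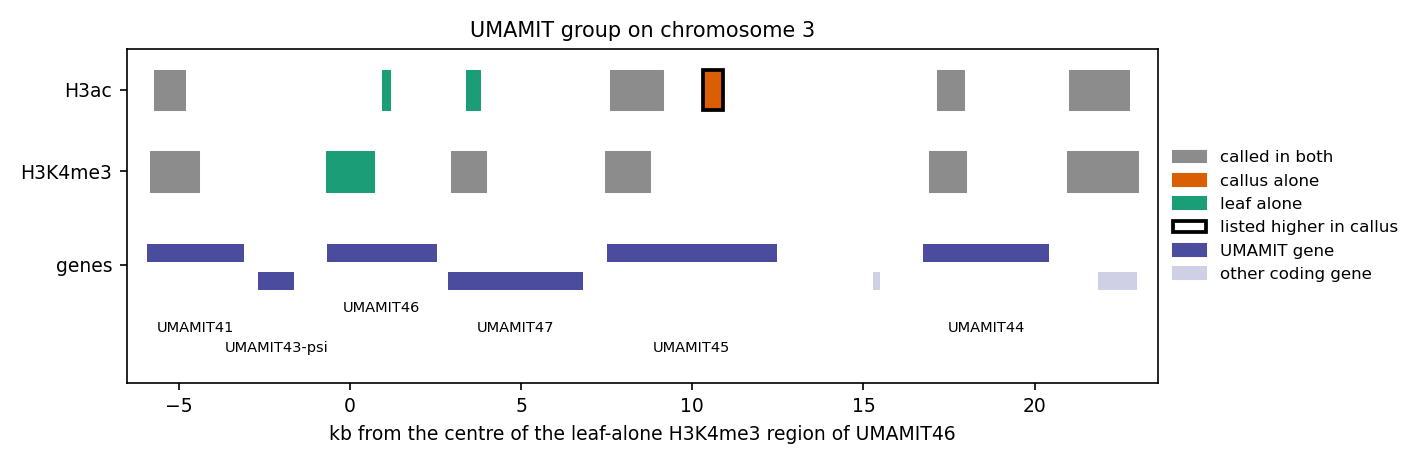
Regions of H3ac (top row) and H3K4me3 (middle row) and protein-coding genes (bottom) are drawn in kb from the centre of the leaf-alone H3K4me3 region of UMAMIT46. Green regions, called in leaf alone, lie at UMAMIT46 and UMAMIT47, the outlined orange region, listed as higher in callus, at UMAMIT45, and grey regions called in both tissues at UMAMIT41, UMAMIT47, UMAMIT45, UMAMIT44 and a gene outside the family.

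The UMAMIT regions called in both tissues were not listed and had no tag numbers, so equal marking is not shown. They differed widely in size and score from gene to gene. UMAMIT38 had the longest, an H3ac region of 2618 bp at 8872501 to 8875118 on chromosome 4, and an H3K4me3 region of 1831 bp inside it. Among regions in gene bodies, it also had the highest score for each mark. The H3ac scores of UMAMIT38 (755.4) and WAT1 (675.5) were higher than or equal to those of 94.3% and 91.8% of the 15687 nuclear H3ac regions called in both tissues. H3K4me3 scores of UMAMIT38 (725.8), UMAMIT41 (673.6) and WAT1 (524.5) lay above or equal to 83.2%, 78.8% and 58.4% of the 16246 such H3K4me3 regions.

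At the lower end, UMAMIT33 (63), UMAMIT6 (114.2) and UMAMIT13 (123.7) had H3ac scores that 2.7%, 10.2% and 11.9% of their class did not exceed. Among H3K4me3 regions that touch a gene body and were called in both tissues, that of UMAMIT33 was lowest as well, with 153.5 and 8.5%. In gene bodies, 7 of 12 H3ac regions called in both tissues reached the median score of their class, as did 4 of 14 H3K4me3 regions. UMAMIT1, UMAMIT2, UMAMIT40 and UMAMIT44 lay between these ends for both marks. UMAMIT1 had 2 regions of each mark in its body, with nearly the same borders for the 2 marks: its H3ac region at 18387239 to 18387806 on chromosome 5 shared 567 bp with an H3K4me3 region whose centre was 6 bp away.

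**Figure D5:**
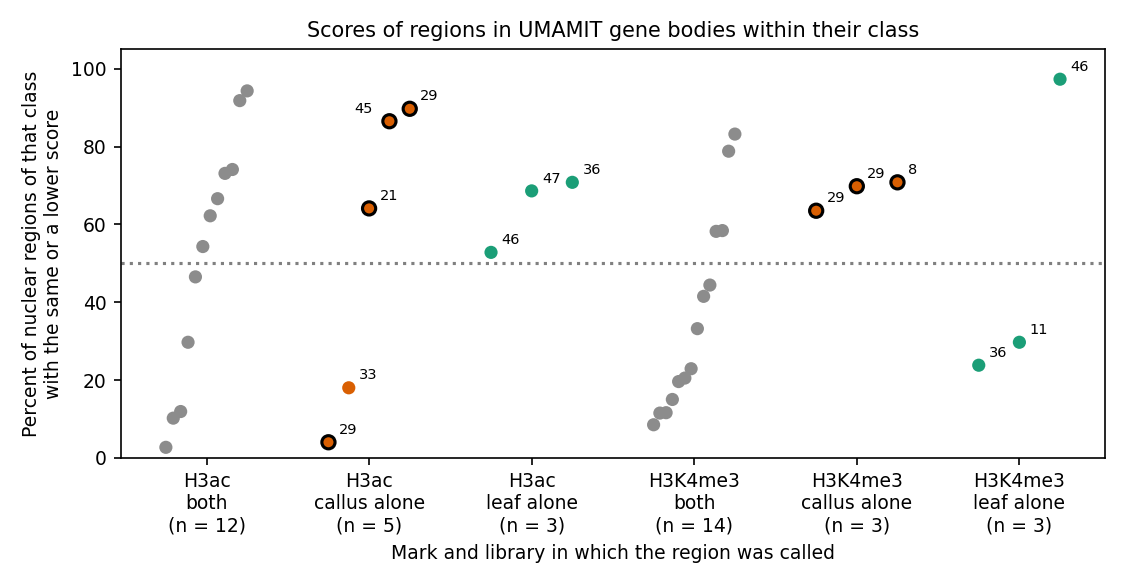
Each point is a region that touches a UMAMIT gene body, placed by the percent of nuclear regions of its class with the same or a lower score; classes are the mark and the library or libraries of the call, numbers are UMAMIT numbers, and a black outline marks regions listed as higher in callus. The leaf-alone H3K4me3 region of UMAMIT46 stands at 97.3%, and the H3ac region of UMAMIT29 with the largest fold at 4%.

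Where they touched a gene body, the marked regions covered a median of 28.6% of it for H3ac (16 genes, from 7.3% at UMAMIT46 to 90.3% at UMAMIT38) and 43% for H3K4me3 (18 genes, from 7.8% at UMAMIT7 to 68.3% at UMAMIT38). Over all genes these medians were 33.2% and 41.2%. Of 26 pairs of a UMAMIT gene and an H3ac region, 23 overlapped an H3K4me3 region of the same gene, and 21 of the 23 overlaps had the same call for both marks. The exceptions were UMAMIT47 and UMAMIT33, given above. Most nuclear regions were called in both tissues, 15687 of 20185 for H3ac and 16246 of 18483 for H3K4me3. Of the 26 H3ac pairs, 6 lay outside the UMAMIT gene body, in that of a neighbouring gene. The share of such overlaps and of equal calls over all genes was not computed. A median of 94 bp separated the centres of overlapping regions.

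Not every region within 500 bp belonged to the transporter gene. Of 55 pairs of a gene and a region, 15 lay outside the UMAMIT gene body, and all 15 were called in both tissues and overlapped the body of a neighbouring gene. Most nuclear regions were likewise called in both tissues, and the share of such pairs over all genes was not computed. SIAR1, which is known for supplying amino acids to siliques, had only such regions, 259 bp (H3ac) and 247 bp (H3K4me3) from its body in the neighbour AT1G44790. Both H3ac regions of UMAMIT7 were of this kind, and its H3K4me3 region at 19253757 to 19254591 on chromosome 5 had 22.6% of its length in UMAMIT7 and its centre in AT5G47460. The regions just inside the 500 bp limit lay 492 bp from UMAMIT40 (H3ac) and 438 bp from UMAMIT2 (H3K4me3), and those just outside it lay 522 bp from UMAMIT2 and 501 bp from UMAMIT28.

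Among other genes of amino acid and nitrogen transport, the glutamine dumpers had the largest share listed for H3ac. GDU proteins are small membrane proteins known for raising amino acid export when overproduced. Of 7 GDU genes, 4 had an H3ac region and all 4 were listed as higher in callus, where 7.03% of all genes with such a region were. The authors' deposited table held 50 scaled callus and 6 leaf tags for GDU1, or 8.34-fold (3.64 to 23.5), and 36.9 and 4.5 tags for GDU5, or 8.2-fold (3.16 to 28.4). GDU4 (6.26-fold, 2.86 to 16.2) and GDU3 (2.87-fold, 1.76 to 4.88), named here after their values in the authors' deposited table were seen, completed the 4. For H3K4me3, 1 of 4 was listed (8.01% over all genes), and the authors' deposited table gave it, GDU5, as 2.9-fold higher (1.98 to 4.33). Calls in callus alone were found for 3 of the 4 genes for H3ac and 1 of 4 for H3K4me3. The share of callus-alone calls over all genes was not computed, here or for the lists below.

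Genes for amino acid uptake differed from list to list. Of the amino acid permeases, which take amino acids up with protons, the authors' deposited table listed 1 of 4 with an H3ac region, AAP1 (2.49-fold, 1.62 to 3.92), where 7.03% of all genes with an H3ac region were listed. For H3K4me3 the authors' deposited table listed 2 of 3, AAP3 (2.35-fold, 1.72 to 3.25) and AAP5 (2.3-fold, 1.4 to 3.91), where the share over all genes was 8.01%. The importer genes LHT1 and LHT2 had H3K4me3 regions in leaf alone, 2 of 3 in their list with such a region (2.9% over all genes), and none of their list was listed for either mark. Cationic amino acid transporter genes (8 with H3ac, 9 with H3K4me3) and proline and GABA transporter genes (3 and 3) were neither listed nor in leaf alone. These lists are small, and over all genes 7.03% (H3ac) and 8.01% (H3K4me3) were listed and 3.26% and 2.9% in leaf alone.

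Nitrate and peptide transporter genes had 2 of 7 listed for H3ac (7.03% over all genes) and 2 of 8 for H3K4me3 (8.01%). None was in leaf alone (3.26% for H3ac and 2.9% for H3K4me3 over all genes). In callus alone were 1 of 7 for H3ac and 3 of 8 for H3K4me3, a share not computed over all genes. For NRT1.5, which loads nitrate into the xylem, the authors' deposited table gave both marks, H3ac as 4.35-fold higher (2.21 to 9.53) and H3K4me3 as 3.23-fold higher (2.21 to 4.83). The other nitrate transporter genes in the authors' deposited table were NRT1.1 for H3ac (2.34-fold, 1.12 to 5.34) and NRT1.8 for H3K4me3 (2.22-fold, 1.63 to 3.05). Of the ammonium and nitrate uptake genes, the authors' deposited table held 1 of 7 for H3K4me3 (AMT1;3, 2.64-fold, 1.74 to 4.11) and none of 5 for H3ac, a share near that of all genes (8.01% and 7.03%). In leaf alone were regions of AMT1;2 for H3K4me3 and of WR3, a partner of nitrate transporters, for both marks, or 1 of 5 genes for H3ac (3.26% over all genes) and 2 of 7 for H3K4me3 (2.9%). In callus alone was 1 of the 7 for H3K4me3, a share likewise not computed over all genes.

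Genes that make amino acids had 2 of 11 listed for H3K4me3 (8.01% over all genes) and 0 of 11 for H3ac (7.03%). Those in the authors' deposited table were the glutamate synthase gene GLT1 (3.14-fold, 2.33 to 4.29) and the glutamine synthetase gene GLN1.3 (2.83-fold, 2.25 to 3.59). ASN1, an asparagine synthetase gene, had regions of both marks in leaf alone, and GLU1, for the glutamate synthase of leaf chloroplasts, had H3ac in leaf alone, which makes 2 of 11 for H3ac (3.26% over all genes) and 1 of 11 for H3K4me3 (2.9%). For H3ac, 2 of the 11 synthesis genes had regions called in callus alone, though none was listed and this share was not computed over all genes. Amino acid breakdown genes (8 with H3ac, 9 with H3K4me3) were neither listed nor in leaf alone. These too are few genes, beside shares over all genes of 7.03% and 8.01% listed and 3.26% and 2.9% in leaf alone. Of the SWEET sugar exporter genes, 6 of 17 had an H3ac region and 6 an H3K4me3 region, where 69.2% and 73.3% of all genes did. None of them was listed (7.03% and 8.01% over all genes), and SWEET16, 1 of 6 for each mark, had both marks in leaf alone (3.26% and 2.9% over all genes).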

How the data were processed

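The 4 libraries (leaf and callus, H3ac and H3K4me3, 1 each) were compared within each mark. Per the submitters' processing notes, Bowtie2 2.3.4.3, SAMtools 1.11, HOMER 4.10.4 and TAIR10 were used; their roles are not stated. No input library was used here. Per the file headers, regions were merged with mergePeaks and compared with HOMER's differential peak program (tags in 147 bp, fold at least 2, Poisson p-value at most 0.01, not adjusted). The region score, tag signal, fold ratio and p-value are as the authors deposited them; no p-value is printed. Callus tag signal was deposited scaled to leaf.

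The 95% interval of each fold is exact and conditional on the sum of the 2 tag numbers (Clopper-Pearson), after the callus number was multiplied by the depth ratio, with 1 tag taken as 1 read. Intervals cover counting error only and are exact for whole counts only, whereas leaf tags lay on steps of 0.5. Their test on simulated data used whole counts and passed every draw with an empty library. It therefore does not show their coverage for fractional tags such as those of UMAMIT29 in leaf. Genes came from a TAIR10.1 table without strand; 94.3% of 16246 H3K4me3 region centres called in both tissues lay in genes, and 64.6% to 68.2% after shifts of up to 4000 bp. Members and lists were chosen with earlier results of these data known. Every member with a listed region or regions in 1 tissue alone is named, and per list and mark up to 2 genes with the largest fold and 2 in leaf alone. Of 127 listed symbols 89 genes matched, none of them in a list of 30 vacuolar transporter symbols; genes that only share a symbol were dropped. Python 3.11.15, pandas 2.3.3 and SciPy 1.17.1 were used.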

Additional observations from a re-analysis of the deposited data

How the results depend on the processing

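The 3 UMAMIT genes listed for H3ac, UMAMIT21, UMAMIT29 and UMAMIT45, fell to 1, UMAMIT29, at 4-fold or more and also when the lower bound of the interval had to exceed 2. For H3K4me3 the 2 listed genes fell to 1, UMAMIT29, at 4-fold or more, while both kept a lower bound above 2. With 1000 bp on each side, genes with H3K4me3 regions in leaf alone rose from 2 to 4, as UMAMIT9 and UMAMIT43-psi came within reach of regions in neighbouring genes, and UMAMIT6 joined the listed genes, making 3. UMAMIT46 counted as leaf alone for H3K4me3, making 3, with the gene body alone or when the overlap had to reach the width of the tag window. All other counts stayed within 1.5 times under a gene body without added bases, 1000 bp, an overlap of at least the tag window's width and, for listed genes, the tag window in place of the region. Within that range, 1000 bp raised the genes with an H3K4me3 region from 19 to 25 of 46, so that most then had one. It lowered the genes with H3ac regions in leaf alone from 3 to 2, without UMAMIT47. Adding 1 tag to both libraries gave UMAMIT29 16.5-fold for H3ac and 40.8-fold for H3K4me3. Taking 0.5 tags as 1 read raised their lower bounds from 4.75 to 8.21 and from 15.4 to 22.7. Leaf tags of 0.5 to 3.5 limit the folds of 3 UMAMIT29 regions. No paired analysis was possible because each group had 1 library.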

Other observations

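Regions that differed between the libraries lay near some UMAMIT genes but outside the 500 bp used here. An H3ac region 1327 bp from UMAMIT8 (chromosome 4, 9361566 to 9361755) was called in callus alone, overlapped no protein-coding gene and held 24.8 scaled callus and 6.5 leaf tags in the authors' deposited table, or 3.82-fold (1.63 to 10.6). UMAMIT8 was listed for H3K4me3 and had no H3ac region of its own. An H3K4me3 region 514 bp from UMAMIT6 (chromosome 3, 19719282 to 19719563) lay in the MYB transcription factor gene MYB27 and held 83.7 scaled callus and 14.5 leaf tags in the authors' deposited table, or 5.77-fold (3.29 to 10.9). UMAMIT21, listed for H3ac, had an H3K4me3 region of callus alone 799 bp away (chromosome 5, 25863988 to 25864138) that lay in AT5G64690 and was not listed. H3K4me3 regions called in leaf alone also lay nearby, 828 bp from UMAMIT9, 931 bp from UMAMIT43-psi and 1042 bp from UMAMIT3. They overlapped the bodies of AT5G07040, UMAMIT46 and CRK4. Whether any of these regions bears on the transporter genes was not tested.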
